A study of Mus musculus with 18 samples.

Results

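The 10 genes described here carry sugar into cells or build and break glycogen. They are the glucose transporters Slc2a1, Slc2a3 and Slc2a4, the fructose transporter Slc2a5, the glycogen synthases Gys1 and Gys2, the phosphatase targeting subunits Ppp1r3b and Ppp1r3c, the branching enzyme Gbe1 and the glycogen phosphorylase Pygl. They were chosen by name, with earlier results of these data known, from the 55487 genes counted, and all 10 passed the filter on low counts in both tissues, Slc2a5 in sWAT through the Ctrl libraries alone. Bulk RNA-seq was made from subcutaneous white adipose tissue (sWAT) of 4 Ctrl and 4 Csn8AKO mice at 12 weeks of age and from brown adipose tissue (BAT) of 5 Ctrl and 5 Csn8AKO mice at 4 weeks of age, with 1 mouse per library. All mice were male, fed chow and briefly fasted. Csn8AKO mice carry Csn8 f/f alleles and Cre under the adiponectin promoter, which is active in white and brown adipocytes, while Ctrl mice are Csn8 f/f littermates without Cre that the labels call WT. CSN8 is a subunit of the COP9 signalosome, which removes NEDD8 from cullin ubiquitin ligases. The tissues also differ in age, so that tissue and age cannot be told apart.

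Adipocytes take up glucose through GLUT4, the product of Slc2a4, which insulin brings from storage vesicles to the cell surface, while GLUT1, the product of Slc2a1, stays largely at the surface. Glucose enters glycogen through glycogen synthase, whose muscle form is Gys1 and whose liver form is Gys2, and subunits such as Ppp1r3b and Ppp1r3c bring protein phosphatase 1 to glycogen, where it activates the synthase and restrains the phosphorylase. Fat stores little glycogen compared with liver or muscle, but both white and brown fat make and break it with feeding and cold.

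The genes lie on 8 chromosomes of GRCm38 in the files, and all are protein-coding. Slc2a1 spans chr4:119108711-119137983, Slc2a3 chr6:122727809-122801640, Slc2a4 chr11:69942539-69948188 and Slc2a5 chr4:150119283-150144169. Gys1 spans chr7:45434844-45456619, Gys2 chr6:142422613-142473109, Ppp1r3b chr8:35375739-35388139, Ppp1r3c chr19:36731731-36736653, Gbe1 chr16:70313949-70569716 and Pygl chr12:70190811-70231488. Whether strand was used in counting is not given in the sources used here, and reads of Gys1 and its neighbour Ruvbl2 on the other strand, or of Slc2a1, Ppp1r3b and Pygl and the noncoding genes on their other strand, cannot be told apart where the genes overlap. Slc2a3 also holds a processed pseudogene on its own strand.

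RefSeq gave a promoter window for 6 of the 10 genes. The stretches before the start of Slc2a5, Gys1 and Gbe1 are shown, because these are the genes with a window whose level fell in sWAT, and their letters differ widely in composition, with 66.4%, 60.0% and 48.8% G and C in the 250 bases before the RefSeq start against a median of 52.4% over all windows. They are from GRCm38.p6, plus strand, and end before both the RefSeq start and the start in the files, at chr4:150119094-150119282, chr7:45434589-45434838 and chr16:70313699-70313948. Capitals mark matches on either strand to 4 motifs, the E-box CACGTG, the GC box GGGCGG, the CCAAT box CCAAT and the TATA box TATAAA.
Slc2a5: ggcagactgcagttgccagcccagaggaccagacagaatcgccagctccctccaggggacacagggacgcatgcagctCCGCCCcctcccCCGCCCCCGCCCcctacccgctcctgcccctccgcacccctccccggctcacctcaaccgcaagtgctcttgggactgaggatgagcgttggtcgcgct
Gys1: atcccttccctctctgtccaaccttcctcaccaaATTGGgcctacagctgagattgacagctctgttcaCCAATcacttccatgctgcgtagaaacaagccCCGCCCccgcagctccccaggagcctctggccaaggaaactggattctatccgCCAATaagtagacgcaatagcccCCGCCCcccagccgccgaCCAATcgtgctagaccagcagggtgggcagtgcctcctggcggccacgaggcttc
Gbe1: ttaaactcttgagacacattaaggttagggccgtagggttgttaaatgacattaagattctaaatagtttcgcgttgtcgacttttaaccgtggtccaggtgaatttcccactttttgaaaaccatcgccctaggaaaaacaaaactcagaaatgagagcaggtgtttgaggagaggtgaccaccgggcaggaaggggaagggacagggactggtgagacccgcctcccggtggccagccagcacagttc
Slc2a5 held 3 GC boxes, which begin 172, 160 and 154 bases before its RefSeq start, and Gys1 held 2 GC boxes and 4 CCAAT boxes. Gbe1 held none of the 4 motifs in its 250 bases. Of the 32851 RefSeq promoter windows of 250 bases, 32.7% held a GC box, 33.8% a CCAAT box, 12.4% a TATA box and 6.02% an E-box, so that the matches are of common kinds. A match describes the letters and is not a binding site.

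The targeted gene, listed as Cops8, was examined first. In sWAT its level was 7.17, 8.04, 7.57 and 7.69 FPKM in Ctrl and 7.27, 6.07, 6.71 and 7.84 FPKM in Csn8AKO, and the groups overlapped (edgeR quasi-likelihood test, log2 fold change -0.12 ± 0.11 (SE), adjusted p = 0.623). In BAT it fell to 80.3% of Ctrl (log2 fold change -0.30 ± 0.09 (SE), adjusted p = 0.0211), with no overlap. The count covers the whole gene, including exons outside the deletion and transcripts from cells other than adipocytes, so that it does not check the genotype labels. Levels are given here as FPKM, reads per kilobase of gene length scaled to the size of the library, computed from the deposited counts with TMM factors over all 18 libraries and the lengths in the files. Libraries are numbered as in the labels. Fold changes come from edgeR fits within a tissue, and a gene was called at a Benjamini-Hochberg adjusted p under 0.05 over all genes tested.

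In sWAT, 7 of the 10 genes fell in Csn8AKO and 0 rose, against 3.00% of the 18843 genes tested that fell and 2.30% that rose. The 7 were Slc2a3, Slc2a4, Slc2a5, Gys1, Gys2, Ppp1r3b and Gbe1, and in each the Csn8AKO libraries all lay below the Ctrl libraries, an ordering met by 7.98% of genes tested. Slc2a5 had at most 6 reads in a Csn8AKO library of sWAT and could pass the filter only by being high in Ctrl, so that its call there is a description, and 6 of the other 9 genes fell. In BAT, 5 of the 10 fell and 0 rose, against 15.8% of the 22345 genes tested that fell and 16.0% that rose. These were Slc2a4, Gys1, Gys2, Ppp1r3b and Gbe1, again without overlap, which 11.6% of genes tested also met. The median log2 fold change of the 10 genes was -1.54 in sWAT and -0.39 in BAT, where the medians over all genes tested were 0.03 and 0.01. The plot of levels by library and the plot of log2 fold changes show each gene.

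**Figure D1:**
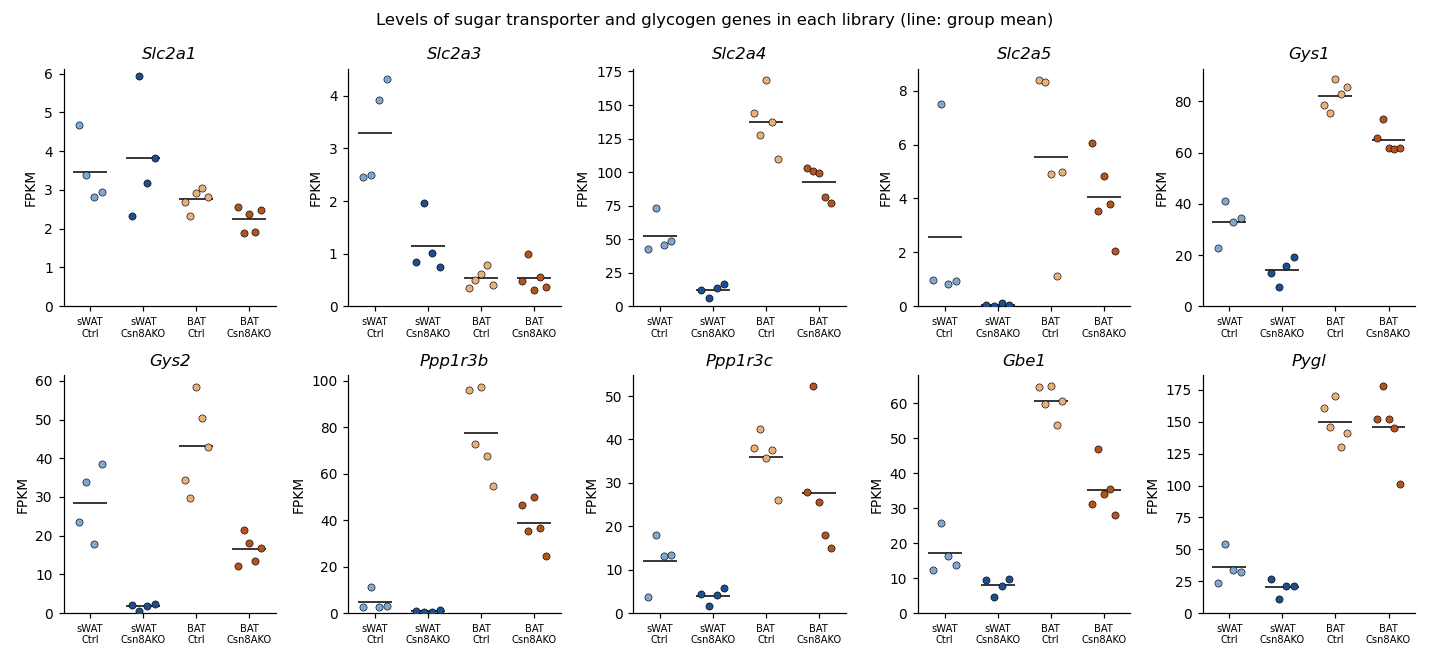
Each panel plots 1 gene, with the FPKM of every library on the y axis and the 4 groups on the x axis, and the black line marks the group mean. Ppp1r3b, Pygl, Gbe1, Gys1 and Slc2a4 are higher in BAT than in sWAT, Gys2 falls from a mean of 28.5 to 1.71 FPKM in sWAT, and 1 sWAT Ctrl library stands above the others for Slc2a5 (7.52 FPKM) and Ppp1r3b (11.1 FPKM).

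**Figure D2:**
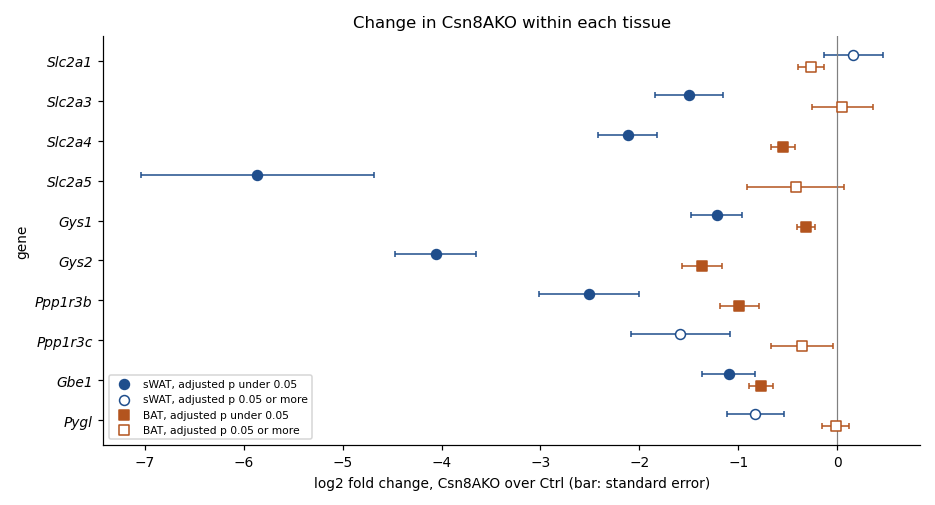
Log2 fold changes of Csn8AKO over Ctrl (x axis) for each gene (y axis), with bars for the standard error, circles for sWAT and squares for BAT, and filled symbols for an adjusted p under 0.05. In sWAT 7 symbols are filled and in BAT 5, all to the left of 0, and the sWAT values of Slc2a5 (-5.86) and Gys2 (-4.06) lie farthest from it.

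The sWAT count depended on single libraries. It was 2 (Slc2a4 and Gys2) without Ctrl 4, without Csn8AKO 1 or without Csn8AKO 3, and 4 without Ctrl 2, without Ctrl 3 or without Csn8AKO 4, and 5 without Csn8AKO 2 and 8 without Ctrl 1. The number of all genes that fell moved as well, from 566 to 191, 266 and 179 in the first 3 of these fits, to 229, 209 and 608 in the next 3, to 673 without Csn8AKO 2 and to 491 without Ctrl 1. Of the 8 fits that left out 1 sWAT library, Slc2a4 and Gys2 were called in all 8, Ppp1r3b in 4, Slc2a5 and Gys1 in 3 and Slc2a3 and Gbe1 in 2. All 7 fold changes stayed negative in each of these fits, and the BAT count stayed at 5 or 6 whichever library was left out.

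Slc2a4, the insulin-responsive transporter, was the most abundant of the 4 transporters in every group. In sWAT its level was 42.3, 73.5, 45.4 and 48.4 FPKM in Ctrl and 12.1, 5.77, 13.8 and 16.3 FPKM in Csn8AKO. The highest Csn8AKO library thus lay well under the lowest Ctrl library, and the group mean was 22.9% of Ctrl (log2 fold change -2.12 ± 0.30 (SE), adjusted p = 0.00544). In BAT the levels were 144, 128, 169, 137 and 110 FPKM in Ctrl and 103, 101, 99.4, 81.7 and 76.7 FPKM in Csn8AKO. The BAT groups did not overlap either, and the Csn8AKO mean was 67.1% of Ctrl (log2 fold change -0.55 ± 0.12 (SE), adjusted p = 0.00360). The fall was larger in sWAT than in BAT, by 1.56 ± 0.32 (SE) on the log2 scale (edgeR interaction of genotype and tissue over 18 libraries, adjusted p = 0.0112), a test that 2.36% of 22509 genes passed.

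Slc2a1, the transporter present in most cells, had 4.67, 3.38, 2.81 and 2.94 FPKM in sWAT of Ctrl and 2.33, 5.93, 3.19 and 3.82 FPKM in Csn8AKO, and the groups overlapped. Its log2 fold change was 0.16 ± 0.30 (SE) in sWAT (adjusted p = 0.818) and -0.27 ± 0.13 (SE) in BAT (adjusted p = 0.128). The sWAT value turned to -0.16 without Csn8AKO 2. Slc2a3, a transporter of high affinity known from neurons and blood cells, had 2.45, 2.49, 3.92 and 4.32 FPKM in sWAT of Ctrl and 0.840, 1.97, 1.01 and 0.739 FPKM in Csn8AKO. Every Csn8AKO library was below every Ctrl library (log2 fold change -1.50 ± 0.34 (SE), adjusted p = 0.0363). In BAT, Slc2a3 had the lowest group means of the 10 genes, between 0.312 and 1.00 FPKM in all 10 libraries, and its log2 fold change was 0.05 ± 0.31 (SE, adjusted p = 0.921).

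Slc2a5, the fructose transporter, had the largest log2 fold change of the 10 genes in sWAT and the fewest reads. The Ctrl libraries held 79, 511, 50 and 62 reads and the Csn8AKO libraries 2, 0, 6 and 2. In FPKM this was 0.987, 7.52, 0.842 and 0.924 against 0.0267, 0, 0.118 and 0.0425, so that 1 Ctrl library was far above the other 3 and all 4 were above Csn8AKO. The log2 fold change was -5.86 ± 1.18 (SE, adjusted p = 0.0322), and -4.40 without Ctrl 2 (adjusted p = 0.0195). The call was lost in 5 of the 8 fits that left out 1 library (adjusted p up to 0.0927). Of 12 other alternatives, 5 kept it. It was lost with no filter on low counts, with limma voom, with the replicate block and in each sWAT fit without 2 libraries (adjusted p up to 0.126). DESeq2 gave no p for it. Ctrl 2 was also the sWAT library with the highest summed brown adipocyte markers, 107 CPM against 33.3 to 54.2 CPM in the other Ctrl libraries, and the part of these cells in its Slc2a5 and Ppp1r3b levels was not tested. In BAT, Slc2a5 ranged from 1.11 to 8.40 FPKM in Ctrl and from 2.06 to 6.06 FPKM in Csn8AKO and the groups overlapped (log2 fold change -0.42 ± 0.49 (SE), adjusted p = 0.568). The changes differed between tissues by 5.50 ± 1.30 (SE) on the log2 scale (edgeR interaction, adjusted p = 0.0369), a call lost (adjusted p up to 0.0905) in 8 of the 18 fits that left out 1 library. The interaction call was also lost with no filter on low counts, with limma voom and with the replicate block (adjusted p up to 0.423).

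Of the summed FPKM of the 4 transporters, Slc2a4 made up 84.9% ± 0.831 (SD, n = 4) in sWAT of Ctrl and 68.9% ± 17.8 (SD, n = 4) in Csn8AKO (two-sided exact permutation test, p = 0.0286, the smallest that 4 against 4 mice can give). The Csn8AKO libraries had 79.1%, 42.2%, 76.2% and 78.0%, all below the lowest Ctrl library at 83.9%. Leaving out Csn8AKO 2, the library at 42.2%, reduced the difference from -16.1 to -7.20 percentage points. Slc2a1 made up 5.91% ± 2.32 (SD, n = 4) of the sum in Ctrl and 23.6% ± 13.2 (SD, n = 4) in Csn8AKO, while the sum itself was 61.7 ± 17.0 FPKM (SD, n = 4) and 17.0 ± 3.18 FPKM (SD, n = 4). The Slc2a1 share was 43.4% in Csn8AKO 2 and 15.2%, 17.6% and 18.3% in the other Csn8AKO libraries, so that Csn8AKO 2 raised its mean as well. In BAT the Slc2a4 share was 93.9% ± 1.90 (SD, n = 5) in Ctrl and 93.1% ± 0.870 (SD, n = 5) in Csn8AKO (exact permutation test, p = 0.421).

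Gys2, the liver form of glycogen synthase, had the lowest adjusted p of the 10 genes in sWAT. Its level there was 23.5, 34.0, 17.9 and 38.6 FPKM in Ctrl and 2.04, 0.631, 1.84 and 2.34 FPKM in Csn8AKO. The group mean was 6.01% of Ctrl (log2 fold change -4.06 ± 0.41 (SE), adjusted p = 0.00196), and even the lowest Ctrl library lay far above the highest Csn8AKO library. In BAT it was 34.3, 29.8, 58.5, 50.4 and 42.8 FPKM in Ctrl and 12.3, 21.6, 18.1, 13.5 and 16.8 FPKM in Csn8AKO. The BAT groups were apart as well, with a mean of 38.2% of Ctrl (log2 fold change -1.37 ± 0.20 (SE), adjusted p = 0.000358). The fall in sWAT was larger by 2.69 ± 0.44 (SE) on the log2 scale (edgeR interaction, adjusted p = 0.00301). This was the 1 gene of the 10 that kept its call in sWAT, in BAT and in the interaction under every alternative and every library left out.

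Gys1, the muscle form, fell less. In sWAT it had 22.6, 41.2, 32.8 and 34.6 FPKM in Ctrl and 13.1, 7.70, 15.9 and 19.4 FPKM in Csn8AKO, without overlap (log2 fold change -1.22 ± 0.26 (SE), adjusted p = 0.0299). In BAT it had 78.7, 75.3, 88.8, 83.1 and 85.7 FPKM in Ctrl and 65.7, 73.3, 62.0, 61.5 and 61.9 FPKM in Csn8AKO, where the highest Csn8AKO library came close to the lowest Ctrl library (log2 fold change -0.32 ± 0.09 (SE), adjusted p = 0.0107). The share of Gys2 in the summed FPKM of both synthases therefore changed, which does not depend on how libraries are scaled. It was 46.0% ± 7.87 (SD, n = 4) in sWAT of Ctrl and 10.5% ± 2.39 (SD, n = 4) in Csn8AKO (two-sided exact permutation test, p = 0.0286). In BAT it was 33.9% ± 4.79 (SD, n = 5) and 20.1% ± 3.10 (SD, n = 5), with p = 0.00794 by the exact test, the smallest that 5 against 5 mice can give. No Csn8AKO library reached the range of its Ctrl group in either tissue.

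**Figure D3:**
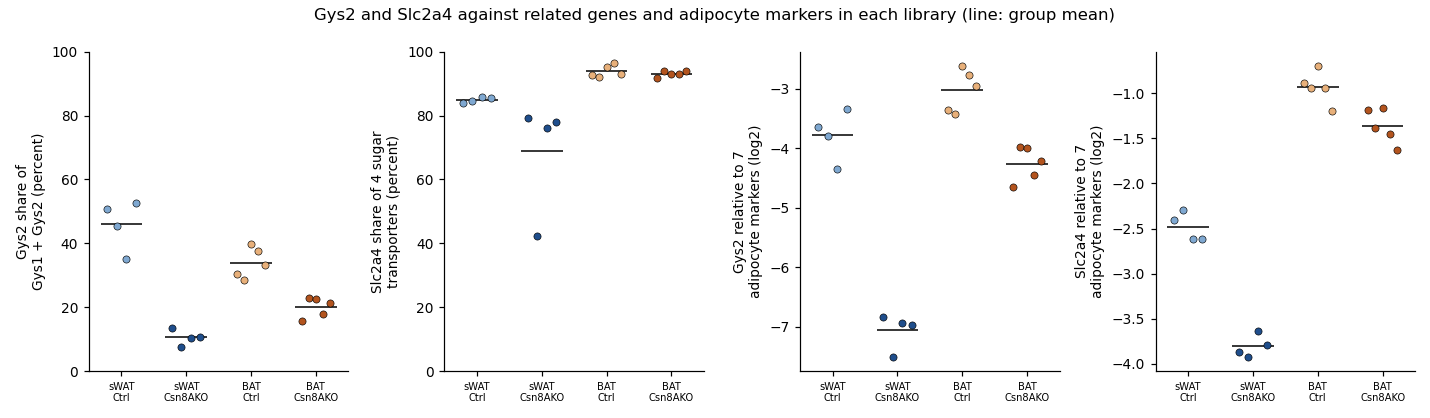
Each panel plots 1 value per library (y axis) for the 4 groups (x axis), with the group mean as a line, namely the percent share of Gys2 in Gys1 plus Gys2, the percent share of Slc2a4 in the 4 transporters, and the log2 level of Gys2 and of Slc2a4 relative to 7 adipocyte markers. In sWAT all 4 values are lower in Csn8AKO with no overlap, and 1 Csn8AKO library has a Slc2a4 share of 42.2%.

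Ppp1r3b, the targeting subunit best known from liver, had the largest difference between the tissues of the 10 genes in Ctrl. Its level in sWAT was 2.83, 11.1, 2.66 and 2.99 FPKM in Ctrl and 0.884, 0.654, 0.679 and 1.19 FPKM in Csn8AKO. Ctrl 2 was again far above the other 3, and without it the log2 fold change of -2.51 ± 0.51 (SE, adjusted p = 0.0316) was -1.75 (adjusted p = 0.0107). Leaving out Ctrl 4, Csn8AKO 1, Csn8AKO 2 or Csn8AKO 3 lost the call (adjusted p up to 0.107). In BAT it was 96.1, 72.7, 97.5, 67.6 and 54.6 FPKM in Ctrl and 46.6, 35.3, 50.2, 36.6 and 24.5 FPKM in Csn8AKO, with every Csn8AKO library below every Ctrl library (log2 fold change -0.99 ± 0.20 (SE), adjusted p = 0.00269). Ppp1r3c, a targeting subunit found in many tissues, passed the test in neither tissue. Its log2 fold change was -1.59 ± 0.50 (SE) in sWAT (adjusted p = 0.115) and -0.36 ± 0.31 (SE) in BAT (adjusted p = 0.427). In sWAT its Ctrl libraries had 3.70, 18.0, 13.2 and 13.4 FPKM and its Csn8AKO libraries 4.45, 1.61, 4.18 and 5.73 FPKM, and the groups overlapped only through Ctrl 1. Without Ctrl 1 its log2 fold change was -1.88 (adjusted p = 0.0218), the 1 of 8 such fits in which it was called. In BAT it was called in 1 of 10 such fits, that without Csn8AKO 2 (log2 fold change -0.71, adjusted p = 0.0182).

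Gbe1, the enzyme that adds the branches of glycogen, had 12.4, 25.8, 16.3 and 13.7 FPKM in sWAT of Ctrl and 9.45, 4.65, 7.78 and 9.77 FPKM in Csn8AKO (log2 fold change -1.10 ± 0.27 (SE), adjusted p = 0.0455). In BAT it had 64.5, 59.8, 64.9, 53.8 and 60.6 FPKM in Ctrl and 31.3, 46.9, 34.0, 35.4 and 28.0 FPKM in Csn8AKO (log2 fold change -0.77 ± 0.12 (SE), adjusted p = 0.000259). The groups were apart in both tissues, and of the 10 genes Gbe1 had the smallest adjusted p in BAT. The 2 changes differed by 0.32 ± 0.30 (SE) on the log2 scale (adjusted p = 0.686), so that a difference between tissues was not detected. Pygl, the liver form of the enzyme that releases glucose units from glycogen, was the most abundant of the 10 genes in BAT, with 150 ± 16.1 FPKM (SD, n = 5) in Ctrl and 146 ± 27.7 FPKM (SD, n = 5) in Csn8AKO, and the groups overlapped (log2 fold change -0.02 ± 0.14 (SE), adjusted p = 0.933). In sWAT it had 36.0 ± 13.1 FPKM (SD, n = 4) and 20.2 ± 6.73 FPKM (SD, n = 4) and did not pass either (log2 fold change -0.83 ± 0.29 (SE), adjusted p = 0.145).

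Between the control tissues, 7 of the 10 genes differed in the fit over 18 libraries, against 51.5% of genes tested. Ppp1r3b was higher in BAT by 3.99 ± 0.43 (SE) on the log2 scale (adjusted p = 5.34e-07), Pygl by 2.06 ± 0.25 (SE) and Gbe1 by 1.83 ± 0.22 (SE), and Slc2a4, Gys1 and Ppp1r3c were also higher there. Slc2a3 was lower in BAT, with a log2 difference of -2.63 ± 0.35 (SE, adjusted p = 4.77e-06). Slc2a1, Slc2a5 and Gys2 did not pass (adjusted p = 0.207, 0.193 and 0.0981). Slc2a5 was called higher in BAT without sWAT Ctrl 2 (log2 difference 2.60, adjusted p = 0.00138), and Gys2 with limma voom (adjusted p = 0.0272). The order of group means was the same for Slc2a4, Gys1, Ppp1r3b and Gbe1, from BAT Ctrl through BAT Csn8AKO and sWAT Ctrl to sWAT Csn8AKO, with no overlap between neighbours. Gys2 differed from them in that sWAT Ctrl came second and overlapped with both its neighbours.

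The summed adipocyte markers overlapped between the genotypes in both tissues, but in sWAT their mean was 11851 CPM in Ctrl and 7208 CPM in Csn8AKO. Their median log2 fold change was -0.81 in sWAT and -0.03 in BAT. The summed level in sWAT of Adipoq, Plin1, Fabp4, Cidec, Lipe, Pparg, Cebpa and Lep was 8964, 14165, 11836 and 12440 CPM in Ctrl and 8495, 3867, 7420 and 9051 CPM in Csn8AKO (two-sided exact permutation test, p = 0.0571), with Fabp4 the most abundant, and 2 of the 8 fell. In BAT the means were 9230 and 9235 CPM (exact test, p = 0.984), and 2 of the 8 fell there too. In bulk tissue, fewer adipocytes and less RNA per adipocyte cannot be told apart, so Slc2a4 and Gys2 were also set against the mean log2 CPM of these markers without Lep. On that scale Slc2a4 was -2.48 ± 0.16 (SD, n = 4) in sWAT of Ctrl and -3.80 ± 0.12 (SD, n = 4) in Csn8AKO, a difference of -1.32, and Gys2 was -3.78 ± 0.42 (SD, n = 4) and -7.06 ± 0.30 (SD, n = 4), a difference of -3.28 (two-sided exact permutation tests, p = 0.0286 for each). In BAT the differences were -0.43 for Slc2a4 (exact test, p = 0.0238, with groups that overlapped), which was -0.75 against Pparg alone (exact test, p = 0.00794), and -1.23 for Gys2 (exact test, p = 0.00794). Relative to these markers, the means of both genes were thus lower in Csn8AKO in both tissues. The other members were not set against these markers. The part of adipocyte number in the changes of any member was not tested.

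Other cell types differed between libraries too. Macrophage markers summed to 512, 610, 651 and 715 CPM in sWAT of Ctrl and 1345, 847, 1530 and 1048 CPM in Csn8AKO (exact test, p = 0.0286), and to 55.1 to 82.1 CPM and 201 to 259 CPM in BAT (exact test, p = 0.00794). Mrc1 and Csf1r were the most abundant, and 6 and 7 of the 8 markers rose. Markers of T and B cells, led by Cd79a, were at 246 CPM in sWAT Ctrl 1 and 467 CPM in Csn8AKO 2, and at 7.16 to 26.4 CPM in the other 6 sWAT libraries. Among the Csn8AKO libraries of sWAT, Csn8AKO 2 had the lowest level of every member but Slc2a1 and Slc2a3, which were highest in it. Without these 2 libraries the sWAT count was again 7, with Ppp1r3c and Pygl in place of Slc2a5 and Ppp1r3b, while 827 of all genes fell. In BAT the T and B cell markers had means of 5.87 CPM in Ctrl and 8.70 CPM in Csn8AKO (exact test, p = 0.0159), and 2 of the 9 rose and 1 fell. Neutrophil markers had means of 2.46 and 5.42 CPM in sWAT (exact test, p = 0.0286) and of 0.546 and 1.24 CPM in BAT (exact test, p = 0.00794), with few reads, and none of the 2 tested in sWAT or the 1 tested in BAT was called.

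**Figure D4:**
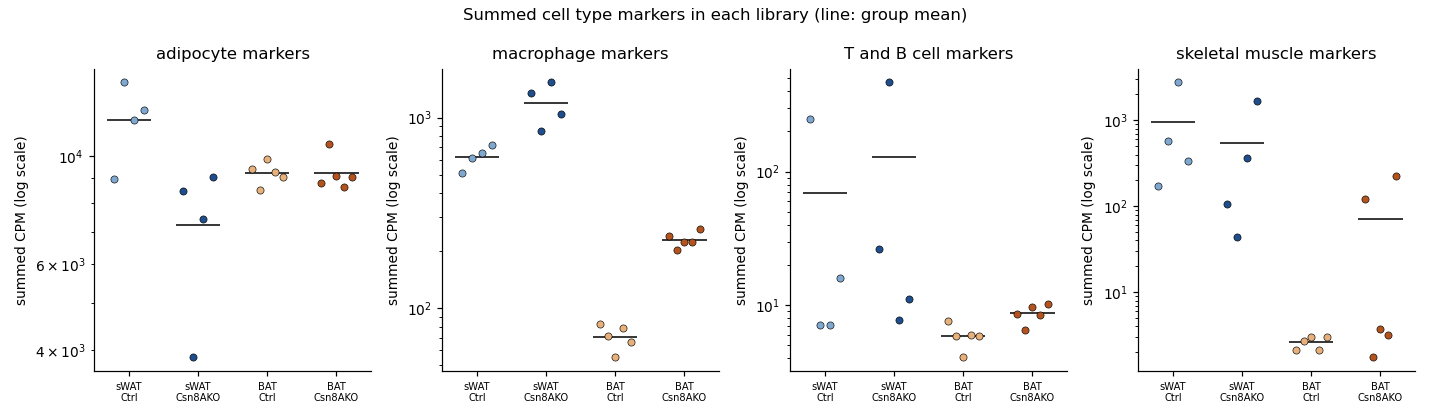
Each panel plots, for 1 list of cell type markers, the summed CPM of every library (y axis, log scale) in the 4 groups (x axis), with the group mean as a line. Macrophage markers are higher in Csn8AKO in both tissues, adipocyte markers are lowest in sWAT Csn8AKO 2 (3867 CPM), and 2 sWAT libraries hold most of the T and B cell markers (246 and 467 CPM).

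Brown adipocyte markers, led by Cidea, were at 33.3 to 107 CPM in sWAT of Ctrl and 5.95 to 14.5 CPM in Csn8AKO (exact test, p = 0.0286). Cidea alone had means of 41.6 and 0.227 CPM, most of the difference between the summed means of 59.1 and 10.1 CPM, and 1 of the 5 markers tested fell. In BAT, where Ucp1 led them, they were at 3785 to 7092 CPM and 4010 to 8579 CPM (exact test, p = 0.238). Fibroblast and progenitor markers, led by Col1a1, were at 465 to 780 CPM in BAT of Ctrl and 1087 to 2138 CPM in Csn8AKO (exact test, p = 0.00794), and all 5 rose, while in sWAT none of the 5 was called.

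Skeletal muscle, which also expresses Slc2a4 and Gys1, had markers at 170, 569, 2764 and 334 CPM in sWAT of Ctrl and 107, 44.4, 360 and 1664 CPM in Csn8AKO, led by Myh4 (exact test, p = 0.514). Without the highest library of each group, Ctrl 3 and Csn8AKO 4, 2 of the 10 genes were called in sWAT, Slc2a4 and Gys2, and 385 of all genes in place of 1000. In BAT the muscle markers were at 122 and 223 CPM in Csn8AKO 1 and 5 and at 1.75 to 3.78 CPM elsewhere, and without those 2 libraries 4 of the 10 genes were called, all but Gys1 of the 5, and 5303 of all genes in place of 7121. Hepatocyte markers, led by Alb in sWAT, were at 26.4 to 158 CPM in sWAT of Ctrl and 4.57 to 77.9 CPM in Csn8AKO (exact test, p = 0.343), and Gys2, Pygl and Ppp1r3b are also liver genes. In BAT they were at 0.167 to 0.459 CPM in Ctrl and 0.631 to 3.90 CPM in Csn8AKO, with Alb and Ttr under 0.5 CPM in every library (exact test, p = 0.00794) and the 1 of the 4 markers that was tested, Serpina1a, rose. Ribosomal RNA took 31.8% and 47.8% of the reads of sWAT Csn8AKO 3 and 4 and at most 19.8% of the others in sWAT, and without those 2 libraries 3 of the 10 genes were called, Slc2a4, Gys1 and Gys2, and 382 of all genes. With all 8 libraries and the ribosomal RNA genes taken out of the counts, the same 7 members fell. The part of these measures in the member genes' changes was not tested beyond these fits.

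Of 18 genes of the GLUT4 storage vesicle and its release, 2 fell in sWAT, where 3.00% of all genes tested fell, and 0 rose. Ralgapa2, a subunit of the GTPase activator of RalA, fell from 14.1 ± 2.80 to 5.27 ± 0.948 FPKM (SD, n = 4; log2 fold change -1.41 ± 0.18 (SE), adjusted p = 0.00371) and the motor Myo1c from a mean of 73.3 to 40.4 FPKM (adjusted p = 0.0184). In BAT 4 of 18 fell and 2 rose, a share near the 31.9% of all genes tested that were called there. Rhoq, the small GTPase TC10, had -0.52 (adjusted p = 0.00019), the syntaxin Stx4a -0.36 (adjusted p = 0.00235), Ralgapa2 -0.44 and Aspscr1 -0.42, whereas the Rab GTPase activator Tbc1d1 had 0.53 (adjusted p = 0.00481) and Lrp1 0.51. Aspscr1 and Lrp1 are named after their values were seen. In sWAT Rhoq had -0.64 (adjusted p = 0.108), Tbc1d1 0.46, Aspscr1 -0.21, Stx4a -0.12 and Lrp1 -0.01, and none of these was called. The v-SNARE Vamp2 was called in neither tissue, with log2 fold changes of -0.40 and -0.03. The list's median was -0.20 in sWAT and -0.08 in BAT.

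Of 15 other sugar transporters, 9 were tested in sWAT and 10 in BAT. Slc2a13, a proton-coupled myo-inositol transporter, fell from 3.68 ± 0.615 to 1.54 ± 0.559 FPKM (SD, n = 4) in sWAT (adjusted p = 0.0227) and was at 0.239 ± 0.0419 and 0.333 ± 0.156 FPKM (SD, n = 5) in BAT, and its change differed between tissues (edgeR interaction, 1.74 ± 0.43 (SE), adjusted p = 0.0394). In BAT, Slc2a12, another insulin-sensitive glucose transporter, fell from 0.844 ± 0.154 to 0.266 ± 0.113 FPKM (SD, n = 5; log2 fold change -1.59 ± 0.25 (SE), adjusted p = 0.000309) and Slc45a3 rose from 0.0871 ± 0.0467 to 0.423 ± 0.0896 FPKM (SD, n = 5; adjusted p = 0.000219). Slc2a6 and Slc2a9 were called in neither tissue, with sWAT log2 fold changes of 0.58 and 0.57. The list's medians were 0.11 and 0.40.

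Of the genes of sugar phosphorylation and fructose use, 8 of 15 tested fell and 3 rose in BAT, against 15.8% and 16.0% of all genes tested. In sWAT 0 of 13 tested fell and 1 rose, against 3.00% and 2.30%. Hk3, a hexokinase known from myeloid cells, rose in both tissues, from 2.80 ± 0.276 to 7.25 ± 1.51 FPKM (SD, n = 4) in sWAT (adjusted p = 0.00275) and from 0.503 ± 0.0557 to 1.73 ± 0.416 FPKM (SD, n = 5) in BAT (adjusted p = 8.32e-06), as macrophage markers did. Hk1, the hexokinase of most cells, rose in BAT from 5.56 ± 0.707 to 16.3 ± 3.96 FPKM (SD, n = 5; adjusted p = 5.29e-06) and had a log2 fold change of 0.29 ± 0.16 (SE, adjusted p = 0.337) in sWAT, a difference of 1.27 ± 0.22 (SE) between tissues (edgeR interaction, adjusted p = 0.00392). Hk2, the insulin-regulated hexokinase, was not called, with -1.28 in sWAT (adjusted p = 0.0705) and -0.13 in BAT. In BAT, Sord, which makes fructose from sorbitol, fell from 20.5 ± 1.88 to 7.83 ± 1.20 FPKM (SD, n = 5; adjusted p = 9.93e-07) and ketohexokinase Khk, which phosphorylates fructose, fell from a mean of 9.35 to 4.21 FPKM (adjusted p = 4.45e-05). In sWAT their log2 fold changes were -0.71 and -0.69, with adjusted p-values of 0.184 and 0.0727. The list's medians were -0.34 and -0.36.

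Among the other glycogen genes, 2 of 26 tested fell in sWAT and 0 rose, against 3.00% and 2.30% of all genes tested. In BAT 7 of 26 fell and 5 rose, against 15.8% and 16.0%. Phka2, a regulatory subunit of phosphorylase kinase, fell in both, by 0.91 on the log2 scale in sWAT (adjusted p = 0.0204) and by 0.65 in BAT (adjusted p = 0.00227). Pgm1, phosphoglucomutase, fell in sWAT from a mean of 54.3 to 26.9 FPKM (adjusted p = 0.0404). In BAT, Epm2a, the glycogen phosphatase laforin, had -1.34 (adjusted p = 4.98e-05), the brain form of phosphorylase Pygb -0.65 (adjusted p = 0.000248) and the kinase subunit Phkb -0.75 (adjusted p = 9.06e-05). Their sWAT values were -1.02, -0.82 and -0.46, and they were not called (adjusted p = 0.0696, 0.0523 and 0.119). Gyg, the glycogenin that primes new glycogen, moved the other way in BAT, from 32.7 ± 6.06 to 56.7 ± 6.56 FPKM (SD, n = 5). Its log2 fold change was 0.82 ± 0.13 (SE, adjusted p = 0.00024) in BAT and -0.02 in sWAT (adjusted p = 0.966). The other 4 that rose in BAT, named after their values were seen, were Stbd1 (0.88), Pgm2 (0.41), Ppp1cc (0.29) and Gaa (0.28). The medians were -0.29 and -0.14.

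Of 12 glucose-responsive regulators, 3 fell in sWAT and 0 rose, against 3.00% and 2.30% of all genes tested, and 3 fell and 2 rose in BAT, against 15.8% and 16.0%. Mlxipl, the carbohydrate response factor ChREBP, fell from 29.9 ± 8.25 to 9.47 ± 5.02 FPKM (SD, n = 4) in sWAT (adjusted p = 0.0347) and from 99.0 ± 5.74 to 74.6 ± 7.65 FPKM (SD, n = 5) in BAT (adjusted p = 0.00600). Klf15, a glucocorticoid-induced factor known to raise Slc2a4 expression, fell in both tissues as well, from a mean of 36.9 to 15.4 FPKM in sWAT (log2 fold change -1.26 ± 0.20 (SE), adjusted p = 0.00786) and from 27.7 to 7.45 FPKM in BAT (-1.88 ± 0.35 (SE), adjusted p = 0.00301). Srebf1, the lipogenic factor SREBP1, fell in sWAT (-1.39 ± 0.31 (SE), adjusted p = 0.0314) and was not called in BAT (-0.42 ± 0.21 (SE), adjusted p = 0.152). Mef2a, a factor that binds the Slc2a4 promoter, had -0.35 in BAT (adjusted p = 0.00257) and -0.05 in sWAT. The 2 that rose in BAT were Arrdc4 (0.58) and Mlx (0.43), named after their values were seen. The medians were -0.13 and -0.08.

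**Figure D5:**
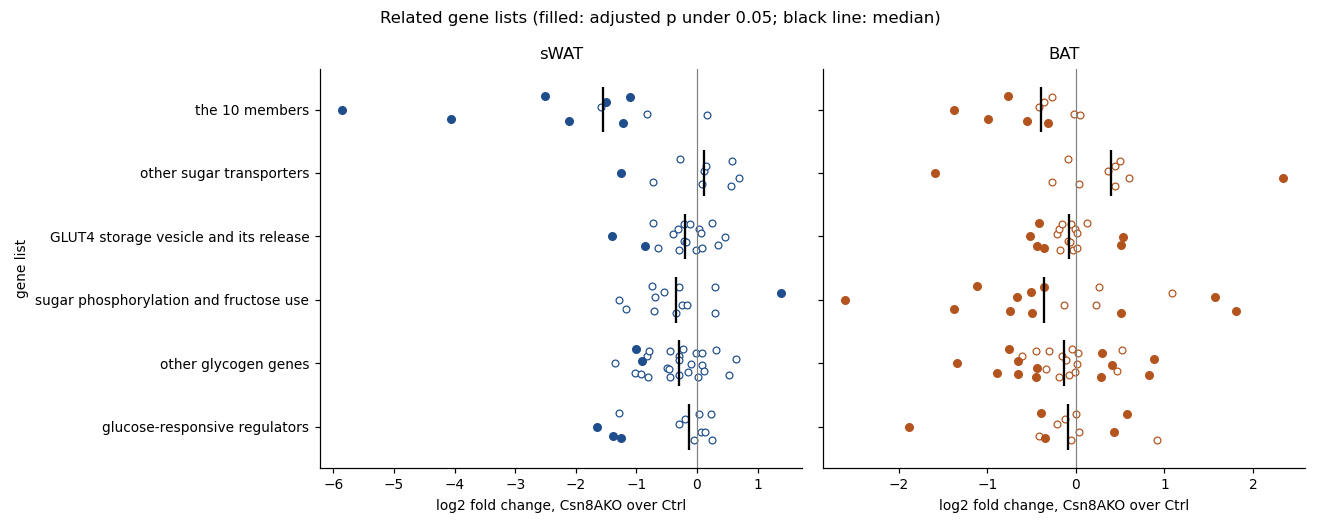
Each point is 1 gene, placed by its log2 fold change of Csn8AKO over Ctrl (x axis) in sWAT (left) and BAT (right) and by its list (y axis), filled where the adjusted p is under 0.05, with the list's median as a black line. The members' medians of -1.54 and -0.39 lie left of those of the other 5 lists in both tissues. In BAT the median of sugar phosphorylation and fructose use lies close to the members', at -0.36. The filled points of the other lists fall on both sides of 0 in BAT.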

How the data were processed

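Total RNA was depleted of ribosomal RNA and sequenced as paired reads, and the authors aligned it with STAR 2.7.9a to GRCm38 and counted uniquely aligned, unambiguous reads on Ensembl genes with featureCounts. The authors deposited, for each library, the count of every gene without normalization, with CPM, FPKM and TPM beside it. The deposited CPM, FPKM and TPM were checked against the counts and not used further. Libraries held 15835721 to 66719937 reads. Genotypes were compared within a tissue with edgeR 4.0.16 (R 4.3.3), TMM factors, filterByExpr (minimum count 10, minimum total 15), robust quasi-likelihood fits, with p adjusted by Benjamini-Hochberg over every gene tested. The interaction and the control tissues were tested over all 18 libraries. For shares and library measures, exact permutation tests (two-sided, scipy 1.17.1) were used. DESeq2 1.42.0 and limma 3.58.1 (voom) were alternatives, and the authors had used DESeq2. The members, lists and tests were chosen with earlier results of these data known. Besides the members, the text names, per list and tissue, the 3 genes with the lowest adjusted p and those called in both tissues. Overlapping genes came from GENCODE for GRCm38. No 2 libraries of the same group were one library counted again.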

Additional observations from a re-analysis of the deposited data

Results flagged for a closer look

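In sWAT, Ctrl 2 had 7.52 FPKM of Slc2a5, where the other 3 Ctrl libraries had 0.842 to 0.987 FPKM, and 11.1 FPKM of Ppp1r3b, where they had 2.66 to 2.99 FPKM. In sWAT, Csn8AKO 2 had a Slc2a4 share of transporter FPKM of 42.2%, where the other 3 Csn8AKO libraries had 76.2% to 79.1%. These are the 3 of 56 sets of values in which 1 library lay far from the rest by Dixon's test, and chance alone gives about 1 in 20 such sets.

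The change with genotype differed between the tissues in 3 genes by the edgeR interaction test. On the log2 scale, the change in BAT minus that in sWAT was 2.69 for Gys2 (adjusted p = 0.00301), 1.56 for Slc2a4 (adjusted p = 0.0112) and 5.50 for Slc2a5 (adjusted p = 0.0369). Slc2a5 had at most 6 reads in a Csn8AKO library of sWAT, so that its value is a description. Its call was lost in 8 of the 18 fits that left out 1 library, with no filter on low counts and with limma voom. With the replicate block the calls of Slc2a5 and Slc2a4 (adjusted p = 0.0740 for Slc2a4) were lost. The tissues were taken at different ages, so that tissue and age cannot be told apart.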

How the results depend on the processing

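Slc2a4 and Gys2 were called in sWAT, BAT and the interaction whichever library was left out. The number of members lower in sWAT was 7, and 9 with all 4 groups in one fit, where Ppp1r3c and Pygl were called too and the number of all genes that fell was 1419 in place of 566, 4 with no filter on low counts, 1 (Gys2) with the replicate block, 2 without the 2 libraries highest in muscle markers, 3 without the 2 highest in ribosomal RNA, and 2 to 8 with 1 library left out. The number lower in BAT was 5, and 3 with all 4 groups in one fit. That fit lost Slc2a4 and Gys1, and 2677 of all genes fell in place of 3536. The BAT count was 4 with library size alone, which lost Gys1, and 2087 of all genes fell. With limma voom it was 7, with Slc2a1 and Ppp1r3c added, and 4525 of all genes fell. The number of members whose change differed between tissues was 3, and 5 with library size alone, 6 with DESeq2 and 1 with the replicate block, while the number over all genes was 532, and 533, 1092 and 283. Ppp1r3c was also called in sWAT with DESeq2 and with library size alone. Among the 7 members, library size alone lost Slc2a3 in sWAT, RLE factors in place of TMM lost Gbe1 and limma voom lost Slc2a5. DESeq2 gave no p for Slc2a5 in sWAT. The labels do not say whether the replicate numbers pair the mice. Correlations of same-numbered libraries lay between -0.39 and 0.22 in sWAT and between -0.11 and 0.11 in BAT. Tissue makeup enters these correlations, so they cannot show whether pairs exist. With the block 200 genes were called in sWAT, against 1000 without it, and 6841 in BAT, against 7121.

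With the replicate block, 4 pairs and 5 pairs allow no exact p below 0.125 and 0.0625, which were the values for the differences in sWAT of the Gys2 share (-35.5) and the Slc2a4 share (-16.1) and in BAT of the Gys2 share (-13.8). With 1 sWAT library left out the smallest exact p is 0.0571, reached in every case, while the differences ranged from -39.1 to -33.3 for the Gys2 share, from -19.5 to -7.20 for the Slc2a4 share, from -1.37 to -1.26 for Slc2a4 relative to adipocyte markers and from -3.47 to -3.13 for Gys2. The sign turned for genes that were not called. Slc2a1 in sWAT was -0.16 without Csn8AKO 2 and up to 0.36 without other libraries. Slc2a3 in BAT was -0.11 with limma voom, -0.00 with the replicate block, -0.07 without Ctrl 1, -0.04 without Ctrl 5 and -0.26 without Csn8AKO 2, and up to 0.25 without others. Pygl in BAT was 0.10 with library size alone, 0.00 without Ctrl 1, 0.03 without Ctrl 3, 0.09 without Csn8AKO 5, down to -0.10 without others, and 0.09 without the 2 libraries high in muscle markers.

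Scaling by library size alone moved the median of all genes in BAT from 0.01 to 0.14 and in the interaction to 0.21, and turned the split of calls over all genes from 566 lower and 434 higher to 328 and 106 in sWAT and from 3536 and 3585 to 2087 and 4183 in BAT. DESeq2 and voom called 1946 and 2129 genes in sWAT. The cause of these differences was not tested. Slc2a5 in sWAT rests on 10 reads in 4 Csn8AKO libraries, which limits its fold change. Fits without pairs of libraries were chosen after the data were seen.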

Other observations

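After the mean of each of the 4 groups was taken away, the log2 CPM of Slc2a4 over the 18 libraries was most alike to that of Erlin2 (Pearson r = 0.95), Pparg (0.95), the master regulator of adipocytes, and Prkaca (0.94), a catalytic subunit of protein kinase A, among 12363 genes. The genes most alike to Gys2 were Nek9 (0.95), Nedd8 (0.89) and Cd99l2 (0.88), and those most alike to Slc2a5 were Tecr (0.91), Nelfe (0.90) and Usp22 (0.89). Nedd8 encodes the protein that the COP9 signalosome takes off cullins. Among the members themselves, Gbe1 and Pygl were most alike (r = 0.93), followed by Slc2a4 and Gys1 (0.87), while Slc2a1 was negatively related to every member but Slc2a3 (0.08), from -0.06 with Ppp1r3b to -0.70 with Pygl. These correlations describe libraries that share tissue makeup and depth, and libraries rich in T and B cells or muscle enter all of them.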
